A study of Mus musculus with 4 samples.

Results

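T cells without Cd8 transcripts are the cells of 4 mouse aorta libraries that carried RNA of the CD3 complex and none of the CD8 coreceptor. They were chosen by their measured counts. A cell needed 2 or more unique molecular identifiers (UMIs, which count captured RNA molecules) of Cd3d, Cd3e and Cd3g together, and 0 UMIs of Cd8a, Cd8b1, the thymocyte genes Rag1 and Dntt, the B cell gene Cd79a and the macrophage gene C1qa. Of 25593 cells with 500 or more genes and under 10% mitochondrial UMIs, 669 met this rule. Among them 239 had a UMI of Cd4 and are called Cd4-positive, and 430 had none and are called Cd4-negative. A cell can express Cd4 without a captured UMI, so the Cd4-negative class may also hold CD4 T cells.

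The libraries were made from dissociated aorta of mice aged 16 to 20 weeks, with 1 library for each of 4 groups. All mice carried the CNC-SMC-Cre driver together with the reporter allele R26-tdT, and the cKO mice had Smad4flox/flox in addition. The labels do not spell out the driver's name, and the series title speaks of smooth muscle cells and not of T cells. From each genotype the aortic arch (labelled AA) and the descending thoracic aorta (labelled TA) gave 1 library. The number of animals behind each library is not known from the sources used here. With 1 library per group no test between groups was possible, and every interval printed for a library covers counting error only.

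Mature T cells recognise antigen through a receptor joined to the CD3 complex. Alpha-beta T cells with CD4 see peptide on MHC class II and act as helper or, with the transcription factor Foxp3, as regulatory cells, while gamma-delta T cells and some unconventional alpha-beta T cells lack both coreceptors. Naive and central memory T cells carry Ccr7, a receptor for entry into lymph nodes, and leave tissue through the sphingosine receptor S1pr1. Cells that stay in tissue lose both and can gain Cxcr6, Cd69 or the integrin Itgae. In arterial walls such cells lie mainly in the adventitia and around plaques.

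The cells held a median of 3538.5, 6025, 4995 and 5048 UMIs in the cKO arch and control arch libraries and then the cKO descending and control descending ones, and 4 values that stand together always follow this order. The median mitochondrial share was 4.03, 1.56, 2.01 and 1.94%. The cKO arch library was thus the shallowest and had the highest mitochondrial share in these cells. It was also counted against another gene annotation, so only gene identifiers shared by all 4 files were used. Shared identifiers do not make the gene models equal: in these T cells Tomm6 was at 30.7 CPM in the cKO arch library against 438, 367 and 344 CPM, and Ptp4a1 at 90.0 against 0.958, 1.44 and 1.39 CPM, and both were past the same fold in cells without Ptprc. The annotation and the group cannot be told apart in any ratio of the cKO arch library. Y-linked transcripts (Ddx3y, Eif2s3y, Uty and Kdm5d) were found in the cells of the control arch library, with 13, 16, 4 and 5 UMIs, and with 0 UMIs in each of the other libraries, while Xist was found in all 4. Pairs of libraries shared between 66 and 99 barcodes, but a single barcode was shared between cells of the set, by the control arch and the control descending library.

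T cells without Cd8 transcripts made up the largest share of the cKO arch library. There 308 of 5842 cells (5.27%, exact 95% interval 4.71 to 5.88%) met the rule. The control arch library held 134 of 8644 (1.55%, 1.30 to 1.83%), the cKO descending library 114 of 5901 (1.93%, 1.6 to 2.32%) and the control descending library 113 of 5206 (2.17%, 1.79 to 2.60%). The interval of the cKO arch library overlapped none of the other 3. Cd8-positive T cells, chosen by the same filters but with a UMI of Cd8a or Cd8b1, were also most frequent there, at 2.81, 0.752, 1.14 and 1.40% of cells. Cd4-positive cells were 113, 38, 50 and 38 of the T cells without Cd8 transcripts, or 36.7, 28.4, 43.9 and 33.6%, and these intervals overlapped.

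**Figure D1:**
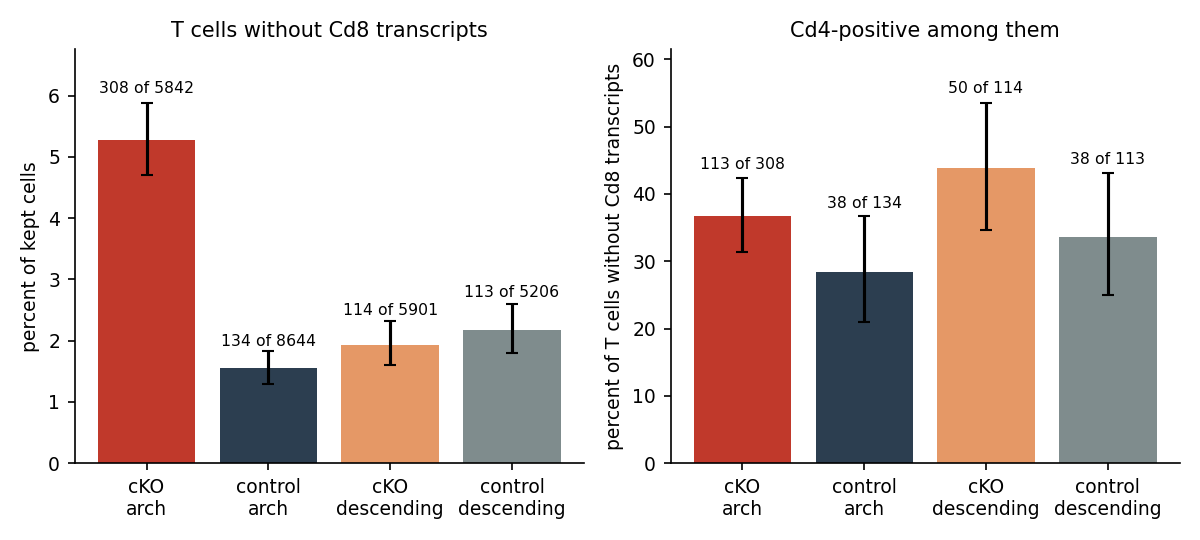
T cells without Cd8 transcripts as a percentage of the kept cells of each library (left), and Cd4-positive cells as a percentage of them (right). Bars start at 0, error bars are exact 95% binomial intervals, and the counts stand above the bars. The cKO arch bar on the left, at 5.27%, lies above the other 3, which span 1.55 to 2.17%, while the right-hand bars overlap in their intervals.

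The cells carried the marks of T cells that the rule had not used. A constant segment of the alpha or beta chain (Trac, Trbc1 or Trbc2) was detected in 85.7, 85.1, 92.1 and 90.3% of them, and no constant segment of the alpha, beta or delta chain in 11.4, 13.4, 6.14 and 9.73%. Trac alone was detected in 67.3, 55.3, 50 and 52.6% of Cd4-positive and in 51.8, 39.6, 40.6 and 34.7% of Cd4-negative cells. The pooled share therefore does not show that all these cells were alpha-beta T cells. Il2rb, the shared receptor chain for interleukins 2 and 15, was detected in 36.7, 47.0, 37.7 and 46.9% of the cells, against 0.984, 0.683, 0.317 and 0.740% of cells without the leukocyte gene Ptprc. Cd3e, used by the rule, was found in 84.1, 95.5, 87.7 and 82.3%. The B cell marker Ms4a1 and the thymocyte marker Ptcra, which the rule had not used, were at 0 in all 4 libraries. A UMI of the thymocyte markers Rag2, Ptcra or Arpp21 was found in 1, 2, 0 and 0 cells. In the control arch library 485 cells had 2 or more CD3 UMIs before the other genes were used. Of these, 234 carried Rag1 and 253 Dntt, against 0 with Rag1 and at most 1 with Dntt in each other library. Whether thymocytes without Rag1 and Dntt UMIs remained in the control arch set was not tested. At the edge of the rule, cells with exactly 2 CD3 UMIs numbered 29, 5, 7 and 7 and had a receptor constant segment in 72.4, 20, 100 and 57.1% of cases, while cells with 1 CD3 UMI, just outside, numbered 42, 39, 14 and 15 and had such a segment in 26.2, 7.69, 35.7 and 40.0%.

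RNA of other aortic cells was present in the libraries and reached these cells as well. The summed level of 6 smooth muscle markers was 3850, 8442, 7266 and 5029 CPM (UMIs scaled to the total of the summed cells) in the T cells, that of 5 endothelial markers 127, 711, 1609 and 1025 CPM, and that of 5 genes of modulated mesenchymal cells (among them Spp1, Comp and Timp1) 792, 60.4, 17.3 and 29.3 CPM. The part of such RNA in the comparisons below was not tested. Genes whose level in the T cells was under 0.5 times that in the other kept cells of the library were therefore counted apart and not named by size.

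Cd4-positive cells of the cKO arch library rarely carried the transcripts of naive and central memory T cells, and those of the other 3 libraries mostly did. Ccr7 was detected in 10 of 113 Cd4-positive cells of the cKO arch library (8.85%, interval 4.33 to 15.7%), in 26 of 38 of the control arch (68.4%, 51.3 to 82.5%), in 30 of 50 of the cKO descending (60%, 45.2 to 73.6%) and in 24 of 38 of the control descending library (63.2%, 46.0 to 78.2%). Lef1, a transcription factor of naive T cells, was detected in 13.3, 78.9, 66 and 73.7% of these cells. For both genes the interval of the cKO arch library lay below those of the other libraries, which overlapped each other. On mm10 Ccr7 lies at chr11:99144196-99155077 on the minus strand and Lef1 at chr3:131110471-131224356 on the plus strand, and their UMIs were counted over whole genes.

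The cKO arch library was also lowest at equal depth. At an equal 1500 UMIs per cell, with 4, 1, 0 and 0 shallower Cd4-positive cells left out, the expected share with Ccr7 was 4.23, 43.4, 32.7 and 41.1%, and that with Lef1 6.22, 54.9, 40.5 and 49.0%. In cells without Ptprc, with median depths of 6244, 10632, 6820.5 and 7078 UMIs, Ccr7 was detected in at most 0.638% and Lef1 in at most 0.554%. Tcf7, a second factor of naive and memory cells, was found in 40.7, 86.8, 90 and 71.1% of Cd4-positive cells and S1pr1 in 20.4, 57.9, 70 and 52.6%. At 1500 UMIs these came to 25.0, 53.8, 50.7 and 42.5% for Tcf7 and 8.59, 29.8, 38.5 and 30.4% for S1pr1. S1pr1 is also an endothelial gene, and cells without Ptprc carried it in 7.10, 10.6, 21.8 and 19.3%. Klf2, which drives S1pr1, was found in 42.5, 84.2, 78 and 78.9% of Cd4-positive cells, but in 43.1 to 52.7% of cells without Ptprc.

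**Figure D2:**
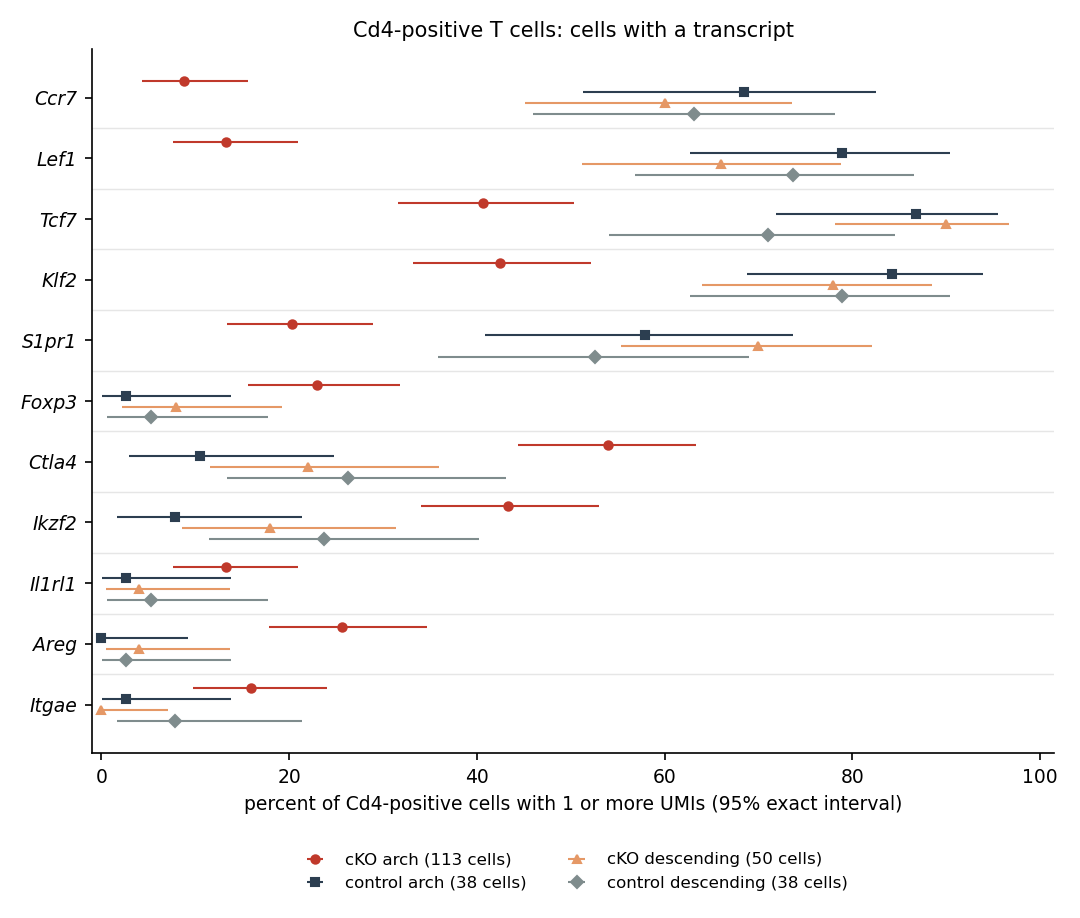
Percentage of Cd4-positive T cells without Cd8 transcripts with 1 or more UMIs of each gene, by library, with exact 95% intervals as lines. For Ccr7 and Lef1 the cKO arch library (circles) lies at 8.85 to 13.3% and the other libraries at 60 to 78.9%, while for Foxp3, Ctla4, Ikzf2, Il1rl1, Areg and Itgae it has the highest share.

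Transcripts of regulatory T cells were most often found in the cKO arch library. Foxp3 was detected in 26 of its 113 Cd4-positive cells (23.0%, 15.6 to 31.9%), in 1 of 38 of the control arch (2.63%, 0.0666 to 13.8%), in 4 of 50 of the cKO descending (8%, 2.22 to 19.2%) and in 2 of 38 of the control descending library (5.26%, 0.644 to 17.7%). The interval of the cKO arch library lay above that of the control arch library and overlapped the other 2. Foxp3 was not confined to Cd4-positive cells: 23 of 195, 0 of 96, 4 of 64 and 3 of 75 Cd4-negative cells had it. Ctla4, an inhibitory receptor of regulatory and activated T cells, was found in 54.0, 10.5, 22 and 26.3% of Cd4-positive cells, with the interval of the cKO arch library (44.4 to 63.4%) above the others. Ikzf2, a factor of regulatory T cells, was found in 43.4, 7.89, 18 and 23.7%, and in 7.51 to 11.2% of cells without Ptprc. Il2ra, an interleukin 2 receptor chain on the same marker list, was found in 18.6, 10.5, 12 and 18.4% of Cd4-positive cells, with overlapping intervals. At 1500 UMIs per cell Foxp3 came to 12.6, 2.31, 5.44 and 4.22% and Il2ra to 9.87, 4.09, 4.65 and 5.96%.

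Areg (amphiregulin, a growth factor that regulatory and type 2 lymphocytes release in damaged tissue) was found in 25.7, 0, 4 and 2.63% of Cd4-positive cells. Taking 3 counts as the limit of a 0, the 0 of 38 cells in the control arch library allows up to 7.89% of cells with a UMI, and the exact interval reaches 9.25%. Limits of this kind say nothing of cells that express a gene without a captured UMI. Il1rl1, the receptor for interleukin 33, was found in 13.3, 2.63, 4 and 5.26%, with overlapping intervals. Itgae was found in 15.9, 2.63, 0 and 7.89%, where 0 of 50 cells allows up to 6% (exact interval to 7.11%). The type 2 cytokine Il13 reached 36 UMIs in the cKO arch library, but these lay in 2 cells.

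Several genes of gamma-delta T cells were found more often in Cd4-negative cells of the arch libraries than of the descending ones, Cd163l1 most plainly. Trdc, the constant segment of the delta chain, was detected in 42 of 195 Cd4-negative cells of the cKO arch (21.5%, 16.0 to 28.0%), 26 of 96 of the control arch (27.1%, 18.5 to 37.1%), 7 of 64 of the cKO descending (10.9%, 4.51 to 21.2%) and 2 of 75 of the control descending library (2.67%, 0.325 to 9.30%). Cd163l1, a scavenger receptor family gene found on interleukin-17-producing gamma-delta T cells, was detected in 20.5, 22.9, 4.69 and 1.33% of Cd4-negative cells, and both arch intervals lay above both descending ones. For Trdc the intervals of the cKO arch and cKO descending libraries overlapped. The variable segment Tcrg-V6 was found in 19.0, 21.9, 6.25 and 2.67%. The constant segment Tcrg-C2 did not follow, with 14.4, 30.2, 4.69 and 16.0%, and 6.03, 7.98, 2.27 and 8.53% at 1500 UMIs per cell. At 1500 UMIs per cell the expected share with Cd163l1 was 18.6, 19.8, 3.48 and 1.35%, and that with Trdc 16.6, 10.2, 4.07 and 0.734%. Whether position in the aorta or the single libraries set this difference cannot be told apart.

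The type 17 genes did not follow Cd163l1 evenly. Il23r, the receptor for interleukin 23, was detected in 7.69, 35.4, 3.12 and 1.33% of Cd4-negative cells, so the control arch library stood highest. At 1500 UMIs per cell Il23r came to 2.95, 11.8, 1.24 and 0.346%. Il17a itself was found in 13 and 6 cells of the 2 arch libraries (6.67 and 6.25%) and in 0 of 64 and 0 of 75 cells of the descending ones, which allows up to 4.69 and 4% (exact intervals to 5.60 and 4.80%). Its level in Cd4-negative cells was 82.1 CPM in the cKO arch and 25.2 CPM in the control arch library, a 3.20-fold difference (log2 1.68, interval 0.97 to 2.50). No Cd4-positive cell of any library had a UMI of Cd163l1, Il17a or Il23r.

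Cd4-negative cells with Trdc or Cd163l1 numbered 45, 28, 9 and 3, and Tcrg-V6 was found in 37, 21, 3 and 1 of them, and Blk, a kinase of gamma-delta T cells, in 33, 24, 3 and 1. Trac was found in 7, 4, 2 and 0. In the 2 arch libraries Il23r was found in 8 of 45 and 23 of 28 of these cells, and Il17a in 12 and 3, at median depths of 4394 and 9255 UMIs. Cxcr6, a chemokine receptor of tissue T cells, was found in 39 and 26 of them. Nkg7, a cytotoxic granule gene, was found in 2 of the 45 and 1 of the 28, but in 5 of the 9 and 3 of the 3 such cells of the descending libraries. Il2ra was found in 23 of the 45 and 21 of the 28, and Ikzf2 in 20 and 20, while Foxp3 was found in 1 and 0. Cd4-negative cells with neither Trdc nor Cd163l1 numbered 150, 68, 55 and 72, and Trac was found in 94, 34, 24 and 26 of them.

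Transcripts of natural killer cells ran the other way. Klrb1c (the NK1.1 receptor) was detected in 1 of 195 Cd4-negative cells of the cKO arch library (0.513%, 0.0130 to 2.82%), and in 8.33, 9.38 and 21.3% of those of the other 3 libraries. Ncr1, the NKp46 receptor, was found in 0 of 195, 1 of 96, 4 of 64 and 8 of 75 cells, and 0 of 195 allows up to 1.54% (exact interval to 1.87%). Klrb1c or Ncr1 was found in 1, 8, 6 and 16 Cd4-negative cells. Whether natural killer cells with CD3 RNA were among these was not tested. Nkg7 was found in 18.5, 22.9, 40.6 and 54.7% of Cd4-negative cells, with the arch intervals (13.3 to 24.6% and 15.0 to 32.6%) below that of the control descending library (42.7 to 66.2%). Gzma, granzyme A, was found in 3.59, 0, 7.81 and 10.7%. Summed over 9 markers, natural killer RNA in all T cells without Cd8 transcripts came to 149, 96.8, 459 and 818 CPM, with Ncr1 and Klra4 at 0 in the cKO arch library.

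**Figure D3:**
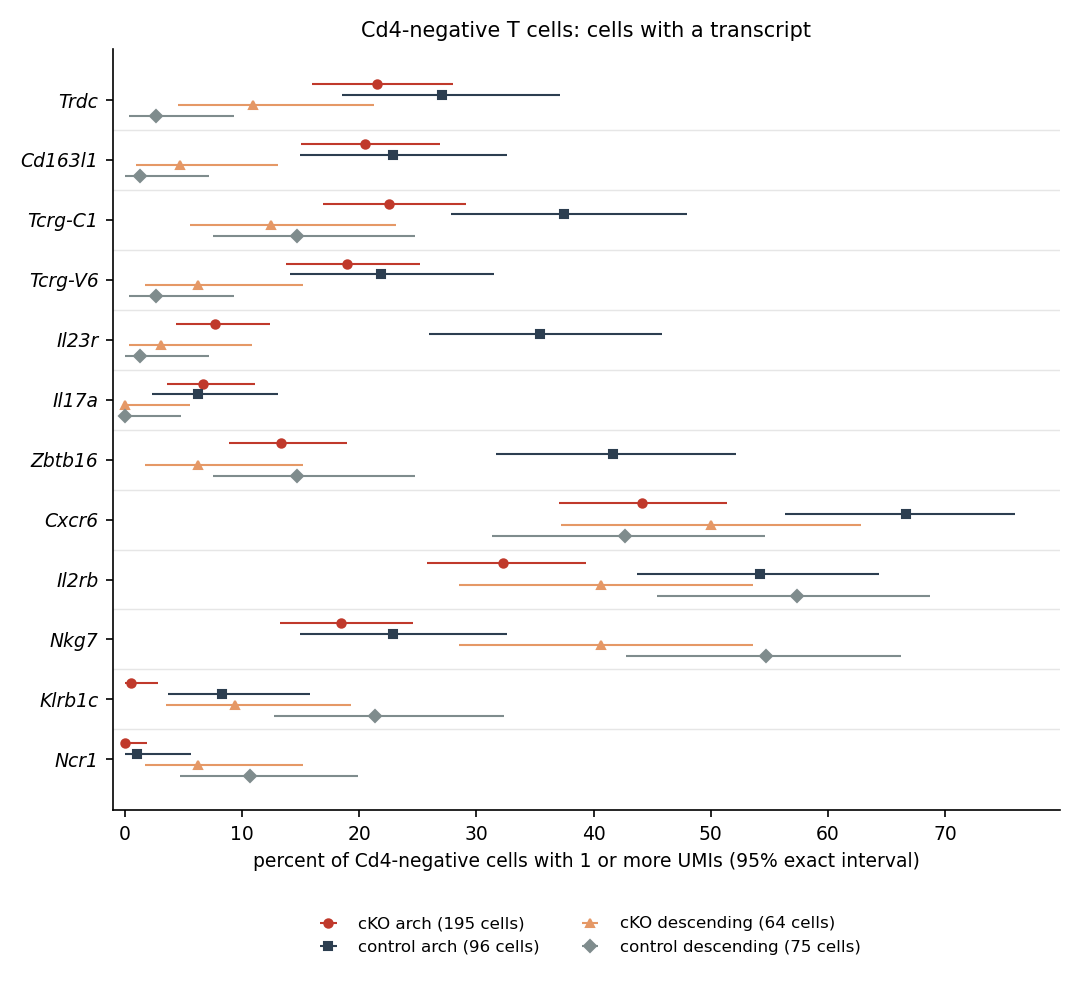
Percentage of Cd4-negative T cells without Cd8 transcripts with 1 or more UMIs of each gene, by library, with exact 95% intervals as lines. Trdc, Cd163l1 and Tcrg-V6 are highest in the arch libraries (circles and squares, 19.0 to 27.1%), Il23r and Zbtb16 in the control arch library, and Nkg7, Klrb1c and Ncr1 in the control descending library (diamonds).

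Il2rb was found in 44.2, 28.9, 34 and 26.3% of Cd4-positive cells and in 32.3, 54.2, 40.6 and 57.3% of Cd4-negative cells. The intervals of the first series overlapped, and in the second that of the cKO arch library (25.8 to 39.4%) lay below those of both control libraries (43.7 to 64.4% and 45.4 to 68.7%). The shares were not tested between the classes. In the edgeR comparison of summed counts described below, Il2rb differed by a log2 of -0.55, Cd4-positive over Cd4-negative. It was not past the threshold, and its direction was not the same in all libraries. Cxcr6 was found in 23.9, 15.8, 20 and 13.2% of Cd4-positive and in 44.1, 66.7, 50 and 42.7% of Cd4-negative cells. Zbtb16, the factor of invariant T cells, was found in 13.3, 41.7, 6.25 and 14.7% of Cd4-negative cells, but cells without Ptprc had it in 17.5 to 47.1%, so its detection here cannot be read as T cell expression.

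Because both classes came from the same suspensions, Cd4-positive and Cd4-negative cells could be compared within libraries, on counts summed per library and class and with the library as a block. Cd4, CD3 and the other genes of the rule were left out. By edgeR's quasi-likelihood test with Benjamini-Hochberg adjustment, 1 of 6075 genes (0.0165%) was higher in Cd4-positive cells and 4 (0.0658%) were lower, while 476 had an unadjusted p under 0.05. The 1 higher gene was Mki67, a marker of cycling cells, with 79.9, 157, 59.8 and 153 CPM in Cd4-positive and 29.1, 34.1, 11.7 and 43.1 CPM in Cd4-negative cells. It rose by 1.92 on the log2 scale (SE 0.22, edgeR adjusted p = 0.048), with the same direction in 4 of 4 libraries, from 2 to 10 Mki67-carrying Cd4-positive cells in each library. This call rests on few cells: without cells above 3 times the median UMIs the Mki67 difference was 0.10 (edgeR adjusted p = 0.979), and without the 1 cell of the cKO arch and 2 cells of the control arch library with Rag2, Ptcra or Arpp21 it was 1.26 (edgeR adjusted p = 0.641). It was also lost with each library left out, with edgeR adjusted p from 0.0833 to 0.289, and with CD3 from 1 UMI (0.25).

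The lower genes were receptor segments and innate-type genes. The variable segments Trdv4 and Tcrg-V6 had 0 UMIs in Cd4-positive cells, apart from 1 UMI of Tcrg-V6 in the control descending library. Tmem176b, a membrane channel gene high in type 17 lymphocytes, was at 42.8, 52.2, 2.85 and 13.1 CPM in Cd4-positive and at 571, 757, 267 and 213 CPM in Cd4-negative cells (log2 difference -4.10, SE 0.32, edgeR adjusted p = 0.012). Klrk1, the activating receptor NKG2D, was at 9.29, 20.1, 34.2 and 30.6 CPM against 47.2, 87.1, 214 and 213 CPM (-2.48, SE 0.21, edgeR adjusted p = 0.012). All 7 gamma-delta genes tested, out of 24 in the list, were lower in Cd4-positive cells of all 4 libraries, 2 of them past the threshold. A gene needed enough UMIs to be tested and could reach them through a single class, as Trdv4 did. Counts and medians by list therefore describe the genes tested and are no support for a difference of a whole list. Of 13 naive genes none passed, with a median log2 difference of 0.87 beside 0.02 over all genes. Of 15 regulatory genes none passed either, and Foxp3 differed by 1.23 (edgeR adjusted p = 0.56). The count of calls depended on single libraries: it was 0 without the cKO arch or without the control arch library, 0 without the block and 38 without cells above 3 times the median UMIs.

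Against Cd8-positive T cells of the same libraries, T cells without Cd8 transcripts were higher in some genes of regulatory, type 17 and gamma-delta cells and lower in some cytotoxic genes. Of 7837 genes, 49 (0.625%) were higher and 29 (0.37%) lower by edgeR's quasi-likelihood test with the library as a block. Cells of the 2 classes differ in Cd8a and Cd8b1 by the rule, so these were left out. Here too a gene could reach the UMIs needed for the test through a single class. Counts and medians by list below describe the genes tested and are no support for a difference of a whole list. Cd4, which the rule did not use, was at 151, 59.5, 139 and 102 CPM against 14.6, 40.9, 23.1 and 5.88 CPM, 5.12-fold higher.

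Of 13 regulatory T cell genes tested, out of 22 in the list, 7 rose and none fell (median log2 difference 1.39, beside 0.004 over all genes). They were Areg, Tnfrsf4, Il2ra, Izumo1r, Ikzf2, Capg and Tnfrsf18. Foxp3 itself was not among the genes tested in this comparison. Tnfrsf4 (OX40, a costimulatory receptor) stood at 262, 11.5, 21.7 and 46.1 CPM against 41.1, 4.09, 0 and 0 CPM (log2 2.87, SE 0.40, edgeR adjusted p = 0.013). Il2ra, the high-affinity chain of the interleukin 2 receptor, stood at 141, 103, 41.9 and 43.3 against 46.4, 2.05, 4.63 and 1.96 CPM. Il2ra and Ikzf2 were also frequent in arch Cd4-negative cells with Trdc or Cd163l1, as given above. Their rise therefore cannot be read as that of regulatory T cells alone. Areg stood at 306, 3.84, 78.1 and 33.5 CPM against 15.9, 0, 0 and 0 CPM, so in the control arch library, with 4 UMIs, it was close to absent in both classes. Ctla4 did not pass (1.07, edgeR adjusted p = 0.065).

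Of 8 type 17 genes tested, out of 17 in the list, 5 rose and none fell (median 2.28). They were Tmem176a, Ltb4r1, Maf, Tmem176b and Il1r1. Maf, a transcription factor of helper, regulatory and gamma-delta cells, was at 285, 124, 89.6 and 120 CPM against 31.8, 12.3, 25.5 and 13.7 CPM (log2 2.82, SE 0.24, edgeR adjusted p = 8.8e-04). Of 7 gamma-delta genes tested, out of 24 in the list, 4 rose and none fell. Among the 4, the constant segment Tcrg-C1 was at 70.4, 115, 18.8 and 23.7 CPM against 10.6, 6.14, 0 and 0 CPM. Helper cell genes were among the 49 as well: Cd40lg, the ligand with which helper T cells activate B cells, was 3.64-fold and the costimulatory receptor Icos 2.94-fold higher. The largest fold was that of Rln3, the gene of the peptide hormone relaxin 3, at 78.4, 64.4, 63.6 and 43.3 CPM against 2.65, 2.05, 0 and 0 CPM (log2 5.33, SE 0.41, edgeR adjusted p = 6.4e-04).

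Of 19 natural killer and cytotoxic genes tested, out of 26 in the list, 7 fell and none rose (median -1.27). Gzmb, granzyme B, was at 15.4, 36.5, 13 and 69.8 CPM in T cells without Cd8 transcripts and at 440, 501, 137 and 137 CPM in Cd8-positive cells (log2 -3.30, SE 0.49, edgeR adjusted p = 0.016). Eomes, a transcription factor of cytotoxic and memory cells, fell by 2.88 (edgeR adjusted p = 0.0026), and the granzyme Gzmk by 2.81. Klrd1 (CD94), Ccl5, Nkg7 and the protease Ctsw also fell. Of 14 naive genes 2 fell, among them Dapl1, a gene of naive and memory T cells. Of 28 immediate early genes, which respond within minutes to stimulation or dissociation, Dusp1, Fosb, Zfp36, Jun and Junb rose and Dusp2 fell. Without the cKO arch library 12 genes were higher and 6 lower, and without the highest doublet scores 141 and 70.

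**Figure D4:**
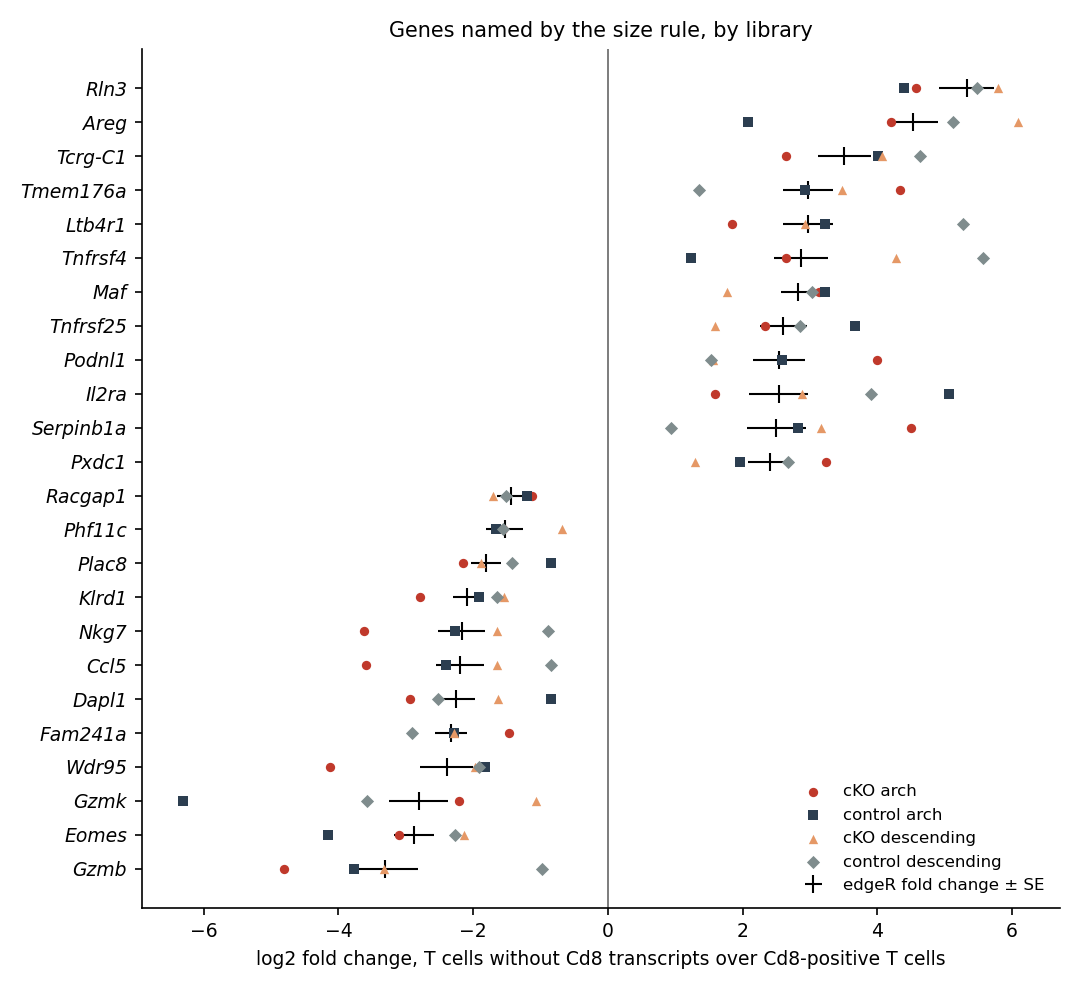
Log2 fold change of the genes named by size, T cells without Cd8 transcripts over Cd8-positive T cells. Symbols show each library and the black mark the edgeR estimate with its SE. In every library Rln3, Areg, Tcrg-C1 and the other higher genes lie right of 0, and Gzmb, Eomes, Gzmk and the other lower genes left of it.

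The cKO arch library was then set against each of the others, gene by gene, on summed UMIs. A gene counted as past the fold if the cKO arch library was at least 2-fold above, or 2-fold below, each of the other 3. Of 4220 genes with enough UMIs, 129 (3.06%) were higher and 137 (3.25%) lower in T cells without Cd8 transcripts. In cells without Ptprc, which are mostly vessel wall cells, 2.1% were higher and 3.43% lower, so shares of this size were found there as well. Of the higher genes 16 were such genes of other cells and 8 were past the same fold in cells without Ptprc with enough UMIs there to be tested, and of the lower genes 30 and 31. With no minimum level in cells without Ptprc, 44 of the 129 higher and 51 of the 137 lower genes were past the fold there too. These include 6 of the 12 higher genes named by size (Cxcl10, Cxcr4, Il1r2, Itgae, Nfkbid and Tnfrsf4) and 1 of the 12 lower ones (Cpne1). Another scaling of the 4 profiles, by the median of ratios, moved all log2 ratios of the cKO arch library up by 0.21 against the control arch, 0.12 against the cKO descending and 0.21 against the control descending library. The medians over all genes tested were -0.17, -0.05 and -0.14. Sets of 3 values are given in this order from here on.

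The higher genes named by size were led by receptors and activation genes. Cxcr4, the receptor that holds lymphocytes in CXCL12-rich tissue, was at 272 CPM in the cKO arch library and at 24.9, 17.3 and 22.3 CPM in the others, 10.7-, 15.1- and 11.9-fold higher. Its log2 ratios were 3.42 (interval 2.87 to 4.08), 3.92 (3.15 to 4.94) and 3.57 (2.89 to 4.43). Il1r2, the decoy receptor of interleukin 1, had 120 UMIs against 1, 0 and 0, which is at least 20.3-fold higher than in the cKO descending and at least 21.0-fold higher than in the control descending library, taking 3 counts per library as the limit of a 0. Against the 1 UMI of the control arch library the ratio was 61.3-fold (log2 interval 4.01 to 11.83). The orphan nuclear receptor Nr4a3 was at 255 CPM against 30.7, 18.8 and 25.1 CPM, and the costimulatory receptor Tnfrsf4 at 261 against 11.5, 21.6 and 46.0 CPM.

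The other higher genes named by size were Rgs16, Cxcl10, Crem, Nfkbid, Itgae, Odc1, Oas1a and Rnf213. Odc1, the first enzyme of polyamine synthesis, was at 379 against 70.9, 50.5 and 86.4 CPM. Itgae was at 88.5 against 19.2, 4.33 and 11.1 CPM, with 121 UMIs against 20, 3 and 8. Cxcl10, an interferon-induced chemokine, was at 119 against 16.3, 0 and 1.39 CPM, but it stood at 36.1 CPM in cells without Ptprc of the same library and at 1.61 to 15.4 CPM in those of the others. Cxcr4, Nfkbid and Rnf213 were past the fold in Cd8-positive T cells too. Cells without Ptprc held far less Cxcr4 and Nfkbid, but there too the cKO arch library was highest, with Cxcr4 at 19.1 against 1.04, 3.02 and 2.46 CPM and Nfkbid at 18.3 against 0.513, 1.18 and 1.54 CPM. The part of RNA from outside the T cells in these ratios was not tested.

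Of the lower genes named by size, Lef1 and Cd7 are T cell genes, Klrb1c, Ncr1, Klrc1 and Fasl natural killer or cytotoxic genes, and Hist1h3b and Hist1h2ap histone genes. Lef1 was at 41.0 CPM against 257, 277 and 286 CPM (log2 ratios -2.64, -2.75 and -2.79). Cd7, an early T cell surface gene, was at 10.2 CPM against 196, 72.2 and 216 CPM. Klrb1c had 2 UMIs against 26, 16 and 44 (log2 ratios -3.80, -3.70 and -5.08, with intervals of -7.21 to -2.09, -7.14 to -1.89 and -8.48 to -3.45). Ncr1 had 0 UMIs against 4, 25 and 51, which is at least 16.4-fold lower than in the cKO and 32.4-fold lower than in the control descending library. Against the 4 UMIs of the control arch library the interval of the ratio spans no difference, and Ncr1 counts as past the fold there only by the ratio with 0.5 UMI added.

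Sox18, Ptprb and Gpihbp1 are endothelial genes, and they were lowest in the library with the lowest endothelial marker sum in the T cells, as given above. The part of endothelial RNA in their difference was not tested. For Sox18 the log2 ratio to the nearest library was 0.11 after thinning to 1500 UMIs, where 4 UMIs remained in all. Cpne1, at 5.85 against 54.6, 66.4 and 62.7 CPM, was lower to a like extent in cells without Ptprc (6.25 against 39.5, 43.8 and 44.7 CPM).

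A gene was tested if it reached 50 CPM in at least 1 library, so some list genes entered only through the libraries where they were high. This holds for all the cells and for each class below. Counts past the fold and medians describe the genes tested and are no support for a difference of a whole list. By list, 7 of the 12 naive and central memory genes tested were lower past the fold and none higher. Median log2 ratios over the 12 were -1.14, -1.48 and -1.29. Among the 7 were Lef1, Satb1, S1pr1, Ccr7, Klf2 and Bach2. Il7r, the interleukin 7 receptor that naive and memory cells share, was not past the fold, at 598 CPM against 507, 455 and 343 CPM. Among 9 chemokine receptor and egress genes Cxcr4 was higher, and S1pr1, Ccr7 and S1pr4 were lower.

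Among regulatory T cell genes tested, 7 of 15 were higher past the fold and none lower (medians 1.56, 1.73 and 1.66). Foxp3 was tested only through the cKO arch library, where alone it reached 50 CPM. Ctla4 was at 294 CPM against 31.6, 62.1 and 114 CPM, and Ikzf2 at 253 against 115, 67.8 and 79.4 CPM. Foxp3 itself was at 76.8 CPM against 3.83, 41.8 and 22.3 CPM and so was not 2-fold above the cKO descending library. Areg was at 305 against 3.83, 77.9 and 33.4 CPM.

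Among natural killer and cytotoxic genes tested, 7 of 19 were lower past the fold and none higher (medians -0.78, -1.39 and -2.16). They were Klrb1c, Ncr1, Fasl, Klrc1, Klre1, Klrk1 and Txk. Without the highest doublet scores the ratio of Klrc1 to the nearest library turned to a log2 of 0.065. Gzmk ran the other way against the control arch library, at 50.5 CPM against 0.958 CPM there. For gamma-delta genes the direction depended on the library it was set against: of 11 tested none was past the fold against all 3, and the medians were -0.76, 1.86 and 1.93. The 12 type 17 genes gave -0.84, 1.53 and 1.48, with Maf alone past the fold.

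Some of the tested genes linked to tissue residency and recent stimulation were higher. Itgae was tested only through the cKO arch library, where alone it reached 50 CPM. Of 17 residency genes 8 were higher and 1, Zfp683 (Hobit), was lower, with medians of 1.17, 1.21 and 0.91. The 8 were Nr4a3, Crem, Itgae, Bhlhe40, Rgs2, Ramp3, Nr4a2 and Nr4a1, while Cd69 (215 against 133, 121 and 114 CPM) and Cxcr6 (195 against 380, 147 and 203 CPM) were not past the fold. Of 26 immediate early genes 8 were higher and none lower (medians 0.81, 0.96 and 0.78). Nfkbia, the inhibitor of NF-kappa-B, was at 826 against 288, 248 and 340 CPM and Fosb at 658 against 149, 212 and 116 CPM, whereas Fos, at 830 against 746, 606 and 600 CPM, was not past the fold.

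Among interferon-stimulated genes tested, 12 of 30 were higher past the fold and none lower (medians 0.91, 1.06 and 1.43). Ifit3 and Oas1a were tested only through the cKO arch library, where alone they reached 50 CPM. Ifi27l2a, the most abundant of them, was at 3108 CPM against 702, 587 and 796 CPM. Isg15, the ubiquitin-like modifier, was at 366 against 126, 63.5 and 43.2 CPM, the RNA-binding antiviral gene Ifit3 at 113 against 29.7, 40.4 and 11.1 CPM, and Oas1a, which senses double-stranded RNA, at 84.1 against 15.3, 18.8 and 6.97 CPM. In cells without Ptprc, Isg15 stood at 166 against 115, 47.7 and 62.1 CPM.

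The promoters of Isg15, Ifit3 and Oas1a show the element through which interferon-activated factors bind such genes. They are printed as the 200 bases before the RefSeq gene start on GRCm38.p6, 5′ to 3′ on the gene's strand, at chr4:156200819-156201018 on the minus strand, chr19:34583329-34583528 on the plus strand and chr5:120907526-120907725 on the minus strand. Capitals mark every match of the letters GAAANNGAAA on either strand, and overlapping matches run together.
Isg15: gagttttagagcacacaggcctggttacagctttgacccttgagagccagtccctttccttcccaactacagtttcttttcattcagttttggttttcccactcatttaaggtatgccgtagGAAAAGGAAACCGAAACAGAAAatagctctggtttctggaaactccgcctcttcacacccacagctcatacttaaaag
Ifit3: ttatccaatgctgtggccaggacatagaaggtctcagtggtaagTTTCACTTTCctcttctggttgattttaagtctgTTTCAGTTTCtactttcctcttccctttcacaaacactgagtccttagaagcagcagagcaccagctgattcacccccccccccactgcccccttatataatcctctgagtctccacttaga
Oas1a: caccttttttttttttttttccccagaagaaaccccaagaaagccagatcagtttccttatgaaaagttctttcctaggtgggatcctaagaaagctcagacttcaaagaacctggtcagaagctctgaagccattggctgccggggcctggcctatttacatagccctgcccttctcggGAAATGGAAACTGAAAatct
Isg15 holds 3 overlapping matches, and Ifit3 and Oas1a hold 2 each. Counts over promoters used the whole promoter entries, which are longer than the 200 bases printed and run past the gene start. In these the letters occur in 19 of 35 promoters of the interferon list (54.3%) and in 1131 of all 32851 promoters (3.44%). They occur in 0 of 22 promoters of the naive list and in 0 of 19 of the regulatory list. A match is a description of the sequence and not a bound site.

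**Figure D5:**
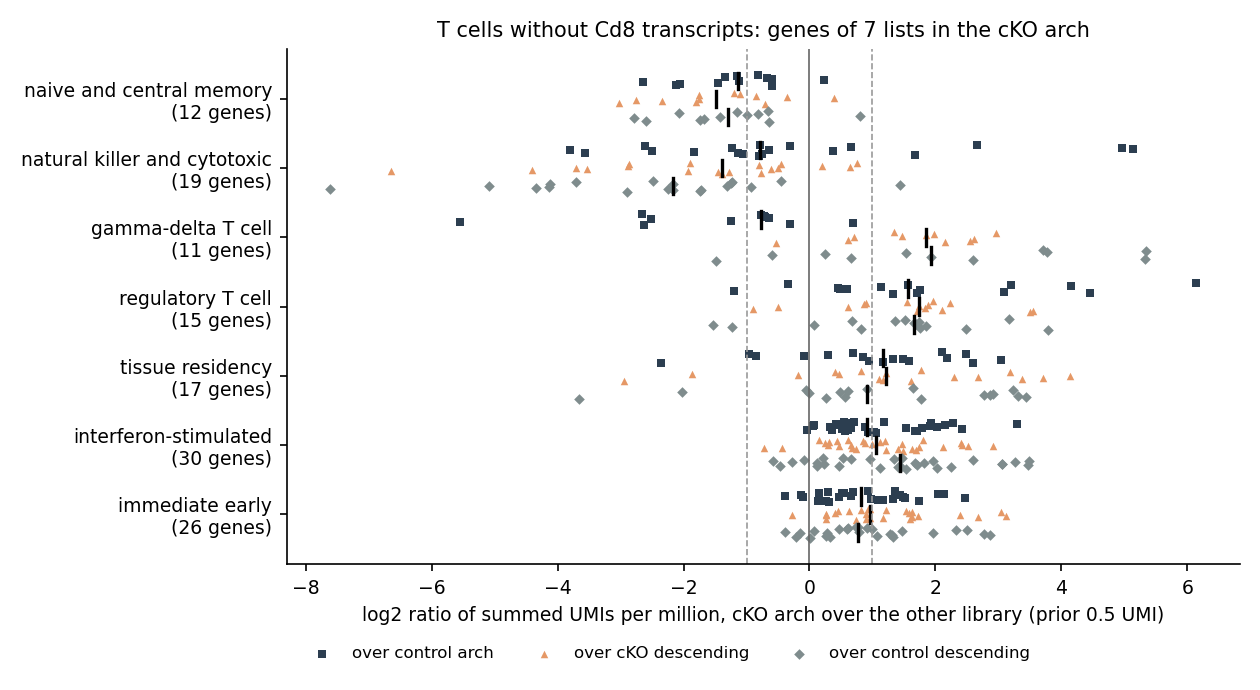
Log2 ratio of the cKO arch library over each of the other 3, for the tested genes of 7 lists in T cells without Cd8 transcripts. Each symbol is a gene, black bars are medians, and dashed lines mark 2-fold. Naive and natural killer genes lie mostly left of 0, regulatory, residency, interferon-stimulated and immediate early genes mostly right, and gamma-delta genes lie left against the control arch library (squares) and right against both descending ones.

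Genes of the TGF-beta pathway were of interest because Smad4, its shared signal transducer, was floxed in the cKO mice. Smad4 was not past the fold in these T cells, at 64.4 CPM in the cKO arch library against 86.3, 90.9 and 69.7 CPM. Of 16 pathway genes 5 were higher and 1 lower (medians 0.30, 0.13 and 0.32). The inhibitor Smad7 was at 304 against 84.3, 124 and 120 CPM. The corepressors Skil, Ski and Tgif1 were also higher, with Tgif1 at 112 against 24.9, 23.1 and 29.3 CPM. Nrros, which anchors latent TGF-beta, was lower, at 17.6 against 48.9, 60.6 and 78.0 CPM. The receptor Tgfbr2 was not past the fold, at 151 against 161, 169 and 220 CPM.

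Within the Cd4-positive cells, 180 of 4523 genes (3.98%) were higher and 159 (3.52%) lower in the cKO arch library. Of 13 naive genes 9 were lower (medians -1.94, -1.97 and -1.81), and of 17 regulatory genes 11 were higher (2.06, 2.39 and 1.58). Ccr7 was at 42.7 against 341, 236 and 444 CPM, 7.86-, 5.45- and 10.2-fold lower. Foxp3 was at 115 against 16.0, 51.2 and 34.9 CPM, with log2 ratios of 2.68 (1.41 to 4.76), 1.14 (0.39 to 2.01) and 1.65 (0.65 to 3.0). Areg had 198 UMIs against 0, 21 and 1, which is at least 30.6-fold higher than in the control arch and 6.02-fold higher than in the cKO descending library. Of 29 interferon-stimulated genes 16 were higher, with Isg15 at 428 against 44.1, 51.2 and 30.5 CPM. Of 16 type 2 genes 6 passed the minimum level, several through the cKO arch library alone, so their count is no result. Gata3, the factor of type 2 lymphocytes, was at 135 against 44.1, 51.2 and 52.3 CPM and Rora at 239 against 36.1, 71.1 and 65.4 CPM. Il2rb was not, at 167 against 156, 156 and 192 CPM.

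Within the Cd4-negative cells, 110 of 4369 genes (2.52%) were higher and 141 (3.23%) lower. Of 11 naive genes 2 (Lef1 and S1pr1) were lower, of 14 regulatory genes 6 were higher and 1 (Socs2) was lower, and of 28 interferon-stimulated genes 4 were higher. Of 19 natural killer genes 5 were lower (Klrb1c, Klre1, Klrc1, Ncr1 and Fasl). Ctla4 was at 238 against 29.0, 52.7 and 28.7 CPM and Itgae at 80.9 against 23.9, 8.79 and 2.05 CPM. Trdc was at 228 against 93.2, 35.2 and 4.10 CPM, 2.44-, 6.25- and 44.7-fold higher (log2 interval against the 2 UMIs of the control descending library 3.93 to 8.86). Its share of cells was 21.5% against 27.1% in the control arch library as sequenced, and 16.6% against 10.2% at 1500 UMIs per cell. Il2rb was at 135 against 253, 261 and 451 CPM, which is past 2-fold against the control descending library alone. Whether a list differed between Cd4-positive and Cd4-negative cells was not tested.

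Cd8-positive T cells of the cKO arch library showed many of the same directions. Of 4244 genes 164 (3.86%) were higher and 154 (3.63%) lower. Of 31 interferon-stimulated genes 15 were higher, of 14 residency genes 7 were higher, and of 13 naive genes 5 were lower, with Ccr7 at 38.3 against 281, 302 and 434 CPM. Natural killer genes were not lower as a list there, with 3 of 18 higher and 1 lower. Trac was higher in the cKO arch library in Cd4-positive cells (313 against 116, 151 and 105 CPM) and in Cd4-negative cells (250 against 90.7, 111 and 94.2 CPM), and in Cd8-positive cells it was at 283 against 104, 178 and 104 CPM.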

How the data were processed

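RNA of dissociated mouse aorta was measured by droplet single-cell sequencing from the 5′ end, in 1 library per group. The authors deposited UMI count matrices (raw counts per gene and barcode, not normalized) made with Cell Ranger 6.1.1 on mm10, per the submitters' processing notes, and the file headers name version 6.1.2. The cKO arch matrix lists 28693 features and the others 32285, and the 27734 shared identifiers held 99.5 to 99.6% of UMIs. Library totals ran from 49407811 to 98866674 UMIs.

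The members and gene lists were chosen with earlier results of these data known. Barcodes with 500 genes and under 10% mitochondrial UMIs were kept. Doublets were not removed, because the automatic threshold of Scrublet marked under 0.5% of cells in 2 libraries (0.0342 and 0.0576%), and an alternative left out the highest scores. Counts were summed per library and class. Shares have exact Clopper-Pearson 95% intervals, a 0 is read as up to 3 counts, and ratios use a prior of 0.5 UMI with conditional 95% intervals. These cover counting error only, and no test between groups was possible with 1 library each.

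Contrasts within libraries used edgeR 4.0.16's quasi-likelihood test (R 4.3.3) with the library as a block, since both sums come from the same suspension, and Benjamini-Hochberg adjustment over all genes tested. These p-values measure the spread between 4 libraries that also differ in genotype and site. The code was tested on simulated data, and DESeq2 1.42.0 was an alternative. Ratios of the cKO arch library were formed for genes with 30 UMIs over the 4 libraries and 50 CPM in at least 1. Genes named by size are the 12 past the threshold with the largest fold in each direction (for the cKO arch, against the nearest library). Left out were genes without a given name, mitochondrial, ribosomal, haemoglobin, immunoglobulin, Y-linked and T cell receptor V, D and J segment genes, Xist and genes of other cells. The edgeR contrasts also required the same direction in every library. For the cKO arch, genes tested and past the same fold in cells without Ptprc were left out too. So were symbols listed more than once. Up to 4 genes of each list furthest from 0 and the markers were named as well, and other list members named were chosen after their values were seen. Promoter sequences are from RefSeq, and 349 of 489 list genes had an entry. Some genes of the lists and markers are not reported here, but counts over a list include them.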

Additional observations from a re-analysis of the deposited data

Results flagged for a closer look

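The cKO arch matrix alone lists a red fluorescent protein feature (RFP), which no comparison used. In T cells without Cd8 transcripts of that library, 194 of 308 cells (63.0%, exact 95% interval 57.3 to 68.4%) had 1 or more UMIs of it, and 7 cells (2.27%) had 16 or more. It was found in 117 of 164 Cd8-positive T cells (71.3%, 63.8 to 78.1%) and in 2979 of 3761 cells without Ptprc (79.2%, 77.9 to 80.5%), of which 21.9% had 16 or more UMIs. The other 3 matrices give no such feature here, so no control level can be set beside it.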

How the results depend on the processing

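With cells thinned to 1500 UMIs before they were chosen, Cd4-positive cells were 17.3, 12.4, 24.0 and 14.5% of T cells without Cd8 transcripts (libraries in the order of the report), and with Cd4 from 2 UMIs 21.4, 15.8, 28.9 and 20.2%. After thinning, Cd4-positive cells had Ccr7 in 4.17% (cKO arch), 50% (control arch) and 29.2% (cKO descending), Foxp3 in 0% (control arch), and Cxcr6 in 8.33% (cKO descending) and 0% (control descending). With Cd4 from 2 UMIs, Ccr7 was at 88.9% and Foxp3 at 0% in the control arch library, and Foxp3 at 0% in the control descending library. Thinned Cd4-negative cells had Trdc in 14.8, 7.96, 1.32 and 0%, Cxcr6 in 21.3, 35.4, 21.1 and 28.7%, and Il2rb in 20.0, 25.7, 25.0 and 38.3%. With CD3 from 1 UMI the control arch library had Cxcr6 in 48.9% and Il2rb in 39.3% of Cd4-negative cells. In cells from 3000 UMIs, a limit chosen after seeing the data, the cKO arch library had Trdc in 29.3%, Cd163l1 in 28.5% and Cxcr6 in 56.1% of them. With CD3 from 1 UMI, T cells without Cd8 transcripts made up 5.99% of cells in the cKO arch library and 2.00% in its control, and 5.94% in the former without the use of C1qa and Cd79a, and 2.47 and 2.76% of the cKO and control descending libraries at 1000 genes and under 5% mitochondrial UMIs.

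In the cKO arch library, 263 genes were higher and 359 lower at 1.5-fold, and 52 and 68 at 3-fold. Sox18 turned to a log2 ratio of 0.11 after thinning and Klrc1 to 0.065 without the highest doublet scores, and the cause was not tested. With the library as the block that pairs both sums of a suspension, 5 genes were called for Cd4, and with no replicate block 0. The count was 9 at 1000 genes and under 5% mitochondrial UMIs, 9 in cells from 3000 UMIs, 38 without cells above 3 times the median UMIs, 16 without the highest doublet scores, 22 by DESeq2, 188 without the filter on low counts, and 0 to 8 with each library left out. Against Cd8-positive cells 78 genes were called with the block and 8 with no replicate block, 264 with CD3 from 1 UMI, 25 after thinning, 211 without the highest doublet scores, 523 without the filter, and 18 to 96 with each library left out. Over the remaining settings, 418 values kept their side of the threshold or stayed within the spread, and of the single-gene values 676 did and 79 kept their direction but not their threshold. The number of cells limits the shares of Foxp3, Areg and Ncr1, which rest on 0 to 8 cells in the 3 libraries other than the cKO arch.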
